A study of Mus musculus with 2 samples.

Results

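The cells described here are the columnar epithelial cells of the mouse stomach at embryonic day 19 (E19), shortly before birth. They were chosen by 2 deposited labels of each cell, the class columnar epithelial and the sample tag of stomach at E19. This gave 366 of the 7808 cells in the whole data set. The study followed the oesophagus, the gastro-oesophageal squamocolumnar junction (GE-SCJ) and the stomach of wild-type C57BL/6 mice at E15, at E19, in pups and in adults, with cells of each region and stage marked by a tag and sequenced together as 1 gene expression library. The columnar cells of 3 other samples served for comparison, with 140 cells of E15 stomach, 351 cells of pup stomach and 274 cells of GE-SCJ at E19. The labels give 6 mice for E15, 2 for E19 and 2 for pups of day 2, pooled within a tag, and no mouse was treated or carried a modified allele. The study's methods give the pooling differently, so the number of mice behind a tag is uncertain. Tissue was cut out, minced and digested with collagenase without sorting. Each region and stage is therefore 1 pooled sample with no replicate, so no test was possible and no p-value is given. Intervals are exact 95% Poisson intervals for levels and exact 95% binomial (Clopper-Pearson) intervals for shares, and they cover counting error only. Where a count was 0, the limit given in their place is the level or share that 3 counts would have, which lies below the upper end of the exact interval.

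The stomach lining is folded into glands, and each gland holds several columnar lineages. Pit cells at the surface secrete mucus and trefoil and gastrokine proteins, neck cells secrete a second kind of mucus, parietal cells secrete acid through the proton pump, chief cells secrete pepsinogens, and scattered endocrine cells secrete hormones. These lineages arise late in gestation and after birth from a simple endodermal epithelium, and the suckling stomach also makes chymosin (Cym), a milk-clotting protease. The unit used below is the unique molecular identifier (UMI), 1 count per captured RNA molecule, and levels pool all cells of a group and are expressed per 1000000 UMIs (CPM). The libraries capture the 3′ ends of transcripts, so levels were not divided by transcript length.

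The 366 cells made up 26.1% (23.8 to 28.5) of the 1403 tagged cells of the E19 stomach, beside 701 stromal, 160 smooth muscle, 76 immune and 60 neural cells. They held 9547554 UMIs, with a median of 24241 per cell (1272 to 77342) and a median of 2.54% mitochondrial UMIs, and no barcode occurred more than 1 time. Markers of columnar epithelium were present, and those of other cell types differed in level. All 8 genes of the columnar list were at least 2-fold higher than in the 354 immune cells of the pool, where 15.3% of all genes with enough counts were that much higher, and the list summed to 8481 CPM against 687 CPM in immune cells. Krt8, a keratin of simple epithelia, was the most abundant gene of that list. Some genes of other cells were near 0, at 1.2 CPM for the leukocyte gene Ptprc, 1.5 CPM for the endothelial gene Cdh5 and 1.4 CPM for the squamous gene Trp63. Others were not, with the stromal gene Col3a1 at 151 CPM and the erythroid gene Hbb-bs at 1007 CPM.

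RNA of other cell types was present, in part concentrated in a few cells. Genes of stroma, smooth muscle, immune, endothelial, neural, mesothelial and erythroid cells together took a median of 0.0621% of the UMIs of a cell, but over 1% in 12 of the 366 cells and 12.2% in the highest. The erythroid list summed to 1814 CPM, of which 73.9% lay in 4 cells, and to 285 CPM without those 12 cells. The smooth muscle list summed to 283 CPM, of which 67.2% lay in 4 cells, and to 115 CPM without the 12 cells. Stromal RNA was more spread, with 30.7% of the list in 4 cells and 343 CPM without the 12 cells, and Col3a1, a fibrillar collagen, had a UMI in 286 of the 366 cells. The stromal list summed to 440 CPM and the squamous list to 91.3 CPM, both below their levels in immune cells (1286 and 160 CPM). The smooth muscle, immune, endothelial and erythroid lists were also lower than in immune cells. The mesothelial list was higher, at 52.9 against 4.25 CPM, as was the neural and glial list, at 7.65 against 5.58 CPM.

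Of the 4 genes that mark the stomach, 3 were at least 2-fold higher in level than in the immune cells, which should lack them. By the share of cells with a UMI at equal depth, 0 of the 4 were above immune cells with intervals that did not overlap. Tff1, the trefoil peptide of pit cells, reached 6829 CPM (6777 to 6882) against 426 CPM in immune cells, and Gkn1, a gastrokine of pit cells, reached 693 CPM (677 to 710) against 122 CPM. The share of cells with a Gkn1 UMI at equal depth is given below, by Cym level. Atp4a, the catalytic subunit of the proton pump, stood at 232 CPM (222 to 242) against 98.0 CPM, but its share of cells with a UMI at equal depth was not higher (31.6% against 36.4%). Pgc, the pepsinogen progastricsin, stood at 1453 CPM (1429 to 1477) against 1307 CPM, which is near the level that immune cells of the same pool carry. The most abundant gene that distinguished the cells was Cym, at 36498 CPM, or 3.65% of all UMIs, against 3428 CPM in immune cells. Other abundant genes above their immune level included the pepsinogen Pga5 at 6939 CPM, the calcium-binding protein S100a6 at 5255 CPM, the metallothionein Mt1 at 3645 CPM and the secreted protein Bpifb1 at 2713 CPM.

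To ask which gland lineages were present, each cell was reduced at random to 5000 UMIs and its UMIs over a list of marker genes were summed. A cell was counted for a lineage when its sum lay above the 99th percentile of the immune cells treated the same way, so about 1 in 100 immune cells passes each list. At this depth 345 of the 366 cells and 253 of the 354 immune cells were kept. The count is a range of a score and does not by itself name a cell type. Shares of cells with a UMI of 1 gene are also given at 5000 UMIs. Without thinning they were larger, for example 91.5% for Foxq1, 85.2% for Sox9 and 28.1% for Muc5ac, and could not be set against the shallower immune cells (median 8266.5 UMIs).

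By this measure the pit programme was the plainest. Of the 345 cells, 121 (35.1%, 30.04 to 40.4) were over the pit cut, with few cells close to it (1 cell at the cut, 2 cells 1 UMI above it), and the highest cell held 642 UMIs where the highest immune cell held 26. For Tff1 alone, 129 of the 345 cells exceeded every immune cell. Tff1 also varied widely between cells. Its median was 10.3 UMIs per 10000 UMIs of a cell, its 10th percentile 1.2, its 90th percentile 233.7 and its highest cell 727.8.

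Gkn1 and Gkn2 were still more concentrated, with 86.4% and 84.7% of their UMIs in the 37 highest cells. Muc5ac, the gel-forming mucin of mature pit cells, was rare at 27.1 CPM (23.9 to 30.6) and had a UMI in 8.41% of the 5000-UMI cells against 2.77% of immune cells. Psca, a surface antigen of pit cells, had a UMI in 52.5% against 29.6%. The 121 cells over the pit cut and the other 224 were alike in depth, with medians of 25008 and 24779.5 UMIs.

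Gkn3, the third gastrokine gene, did not follow its neighbours, although it was on the pit list. These 3 gastrokine genes stand together on chr6, with the start sites of Gkn1 and Gkn2 22.45 kb apart and those of Gkn2 and Gkn3 15.57 kb apart. Their promoters, and that of Cym, are printed because these genes carry the contrast between cells. Each run is the 250 bases before the RefSeq start site in GRCm38.p6, 5′ to 3′ on the strand of the gene, and capitals mark AGATAA (a motif of GATA factors) or TATAAA (the box bound by the basal machinery). Both strands were searched for these and for CAAGGTCA (a motif of oestrogen-related receptors) and TGTTTAC (a forkhead motif).
Gkn1, chr6:87350916-87351165, minus strand: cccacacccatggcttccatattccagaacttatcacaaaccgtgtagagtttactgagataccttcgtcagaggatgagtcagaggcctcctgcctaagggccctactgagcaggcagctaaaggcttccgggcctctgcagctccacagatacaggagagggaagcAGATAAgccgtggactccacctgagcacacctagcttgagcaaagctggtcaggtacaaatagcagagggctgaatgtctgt
Gkn2, chr6:87373115-87373364, plus strand: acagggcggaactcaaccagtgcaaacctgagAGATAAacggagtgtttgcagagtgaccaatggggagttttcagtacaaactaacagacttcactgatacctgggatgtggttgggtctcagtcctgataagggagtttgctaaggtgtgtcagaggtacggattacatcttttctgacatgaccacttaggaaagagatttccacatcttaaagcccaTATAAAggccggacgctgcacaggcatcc
Gkn3, chr6:87388936-87389185, minus strand: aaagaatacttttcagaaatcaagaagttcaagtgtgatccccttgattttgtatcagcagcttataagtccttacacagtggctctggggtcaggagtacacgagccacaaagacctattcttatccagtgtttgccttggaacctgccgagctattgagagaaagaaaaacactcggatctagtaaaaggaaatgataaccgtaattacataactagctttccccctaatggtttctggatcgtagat
Cym, chr3:107221733-107221982, minus strand: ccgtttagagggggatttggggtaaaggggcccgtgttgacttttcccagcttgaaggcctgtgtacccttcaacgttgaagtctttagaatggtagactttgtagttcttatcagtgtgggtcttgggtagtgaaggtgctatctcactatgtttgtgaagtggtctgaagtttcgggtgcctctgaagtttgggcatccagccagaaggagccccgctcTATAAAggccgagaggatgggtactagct
AGATAA was found from -82 to -77 in Gkn1 and from -218 to -213 in Gkn2, and TATAAA from -29 to -24 in Gkn2 and in Cym, while none of the 4 motifs was found in the Gkn3 window. Of 32536 promoters of the same length, 9.97% hold AGATAA, 12.3% TATAAA, 1.33% CAAGGTCA and 3.17% TGTTTAC on either strand, and the matches are a description of the sequence and not sites of binding.

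Across the 366 cells, Gkn1 and Gkn2 varied together in log level per cell (r = 0.85), while Gkn3 had r = -0.13 with Gkn1 and -0.10 with Gkn2. Gkn3 instead varied with Pgc (r = 0.63). These are correlations across cells of 1 library, which share depth and free RNA, and are given as a description. All 3 genes are on the list that set the pit cut, so their levels in the class are a description of it. Cells over the cut had 1789 CPM of Gkn1 and 1683 CPM of Gkn2, against 69.9 and 95.5 CPM in the others, but 215 CPM of Gkn3 against 165 CPM. Cells over the neck cut had 405 CPM of Gkn3 against 104 CPM in the rest.

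Genes outside the list that were higher in the cells over the pit cut included a keratin, a mucin and a mucus protein. Krt20, a keratin of differentiated gut epithelium, was at 90.9 CPM against 0.8 CPM in the other cells (log2 ratio 6.52). Fcgbp, a mucus protein, was at 216 CPM against 6.6 CPM, and Muc5b, a gel-forming mucin, at 387 CPM against 97.3 CPM. Duoxa2, the maturation factor of a hydrogen peroxide-producing oxidase, was at 56.6 CPM against 3.6 CPM, and the calcium-binding protein S100g at 231 CPM against 19.4 CPM. Lower in the same cells were Cblif, the gene for gastric intrinsic factor (11.3 against 143 CPM), the WNT target and stem cell receptor Lgr5 (2.3 against 23.8 CPM), the imprinted RNA H19 (611 against 1843 CPM) and Cym (24820 against 43294 CPM). The genes outside the list were named after their values were seen.

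Neck cell genes were weaker. Of the 345 cells, 85 (24.6%, 20.2 to 29.5) were over the neck cut of 5 UMIs, but 10 lay at the cut and 8 just 1 UMI above it. Tff2, the trefoil peptide of neck cells, carried the list with 1015 CPM against 75.5 CPM in immune cells, and 99 cells exceeded every immune cell for it. Muc6, the mucin of neck and deep gland cells, was at 91.1 CPM (85.2 to 97.4) against 64.6 CPM, and its share of cells (23.2% against 19.4%) was not above the background. Tff2 varied more with Tff1 (r = 0.38) than with Muc6 (r = 0.16), and 46 of the 85 cells over the neck cut were also over the pit cut. Cells over the neck cut had 2922 CPM of Pgc against 896 CPM in the rest, and 530 CPM of Spp1, the secreted phosphoprotein osteopontin, against 181 CPM.

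Pepsinogens were abundant but could not be tied to a separate chief lineage. Over the chief list 123 of 345 cells (35.7%, 30.6 to 41.0) passed the cut, with 81.6% of the list's UMIs from Pga5, but none exceeded the highest immune cell (261 against 316 UMIs). At 10000 UMIs per cell 2.45% passed. Pga5 varied with Cym (r = 0.44) and not with Pgc (r = -0.17), so the 2 pepsinogen genes did not vary together. Bhlha15, the transcription factor MIST1 of mature secretory cells, had a UMI in 4.93% of cells against 0.79% of immune cells, and Cblif in 16.8% against 10.3%. Pgc was concentrated, with 66.2% of its UMIs in the 37 highest cells. A group of 7 cells in the authors' cluster 5 had 15453 CPM of Pgc against 1130 CPM in the other members, and these 7 cells were left unnamed because stromal genes such as Dcn and Lum led their profile.

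Transcripts of the proton pump were concentrated in few cells. The authors' cluster 12 held 25 of the 366 cells (6.83%, 4.47 to 9.92), and the share of UMIs from Atp4a and Atp4b, the 2 subunits of the proton pump, ran from 0.255% to 2.60% in them with a median of 1.25%. In the other 341 cells the median was 0.0111% and the highest cell 0.621%. The highest immune cell had 0.443%, and 24 of the 25 cells were above it but only 1 of the other 341. The 25 cells held 57.8% of all pump UMIs. This cluster and the pump pair were chosen after their values were seen, and a cluster's own leading genes are a description and not a test.

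**Figure D1:**
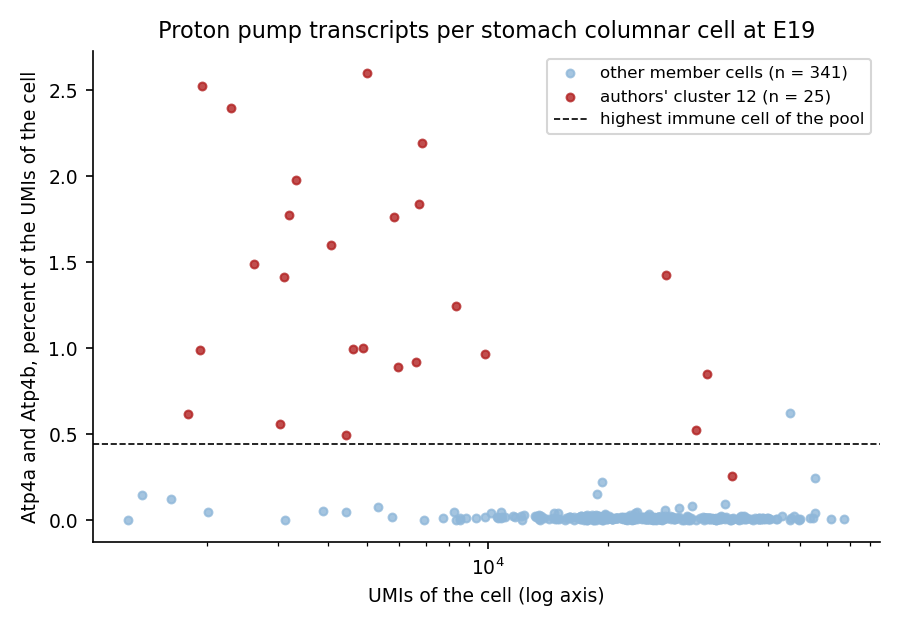
Share of each cell's UMIs from Atp4a and Atp4b (percent, vertical) against its total UMIs (log axis, horizontal) for the 366 stomach columnar cells at E19, with the 25 cells of cluster 12 in red, the other 341 in blue and the highest immune cell (0.443%) as a dashed line. The red cells spread from 0.255% to 2.60%, mostly at low UMI totals, while the blue cells sit near 0.

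The 25 cells are called parietal-like from Atp4a (5730 against 94.3 CPM in the other cells), Atp4b (4268 against 88.7 CPM) and Kcne2, a subunit of the potassium channel that serves the pump (223 against 6.7 CPM). Esrrg, a nuclear receptor of parietal cells, was at 381 against 25.0 CPM, and Kcnq1, the partner of Kcne2 in the channel, at 124 against 16.5 CPM. Also high in the same cells were Tnni3, a troponin best known from heart muscle (600 against 1.4 CPM), Cst8, a cystatin (386 against 3.3 CPM), and Apoa1, the main apolipoprotein of high-density lipoprotein (1688 against 115 CPM). Of the Apoa1 UMIs of the 25 cells, 43.4% lay in 1 cell. Several genes of the parietal list did not differ in this way. Car2, a carbonic anhydrase, was at 1029 against 1033 CPM, Ckmt1, a mitochondrial creatine kinase, at 154 against 289 CPM, and the anion exchanger gene Slc26a7 had 0 UMIs, which allows up to 12.9 CPM.

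The parietal list as a whole did not single out these cells. By the list, 215 of 345 cells (62.3%, 56.97 to 67.5) passed, with 55.4% of its UMIs from Car2. Of the 25 parietal-like cells, 11 had the 5000 UMIs needed and all 11 passed, beside 204 of the 334 other cells. Counting Atp4a and Atp4b alone, a choice made after seeing the data, 16 of 345 cells (4.64%) passed at 5000 UMIs and 25 of 360 (6.94%) at 2000 UMIs.

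The parietal-like cells were shallow, and part of their profile went with depth. Their median was 4891 UMIs, and 14 of the 25 fell under 5000, against a median of 24828 UMIs in the other cells. They also had 489 CPM of Tff1 against 6988, 536 CPM of Krt8 against 2637 and 107 CPM of Agr2, a chaperone of mucus-secreting cells, against 1099. In the 21 cells under 10000 UMIs the noncoding RNA Gm26917 stood at 66929 CPM, Malat1 at 61621 CPM and Gm42418 at 76126 CPM. In the other 4 cells these were 161, 5785 and 5924 CPM. Atp4b was 4417 CPM in the 21 shallow cells and 4164 CPM in the 4 deep ones, while Atp4a was 9674 and 2951 CPM, so the pump genes were high at both depths. Whether the shallow cells were damaged, and the part of depth in these values, were not tested. Among 18 other columnar cells under 10000 UMIs, Gm26917 was at 76.1 CPM, Malat1 at 13766 CPM and Gm42418 at 17797 CPM. For Malat1 and Gm42418 these levels lay between those of the deep and the shallow cells of the cluster.

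Cluster 12 took in 0 of the 140 E15 cells, which allows up to 2.14%, 15 of 274 GE-SCJ cells at E19 (5.47%, 3.10 to 8.87) and 107 of 351 pup cells (30.5%, 25.7 to 35.6). The pup cells of the cluster were deep (median 36615 UMIs) and had 9779 CPM of Atp4a and 8936 CPM of Atp4b. Tnni3 was at 394 CPM and Cst8 at 575 CPM in them, within 2-fold of the E19 levels. Gm26917 was at 60.8 CPM in the pup cells but 7914 CPM in the GE-SCJ cells of the cluster, which had a median of 27090 UMIs.

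Genes of the gland base and of WNT response gave a broad, low signal. Of the 345 cells, 83 (24.1%, 19.6 to 28.9) were over the cut of 3 UMIs, 27 of them by 1 UMI, and 67.2% of the list came from Sox9, a transcription factor of epithelial progenitors. Sox9 had a UMI in 60.9% of cells against 10.3% of immune cells, and Lgr4, a receptor for R-spondins, in 36.8% against 10.3%. Lgr5 had one in 5.22% against 0.79%, and Rnf43, a WNT feedback inhibitor, in 8.99% against 1.58%. Cells over this cut had more Cblif (219 against 54.1 CPM) and Gkn3 (360 against 125 CPM) and less Krt20 (0.4 against 44.5 CPM) and Gkn1 (68.1 against 902 CPM) than the rest. In all, 12 cells were over both the base cut and the pit cut. No cell passed the tuft list, 0 of 345 cells, which allows a share of up to 0.870%. None passed the cell cycle list either, whose cut in immune cells was 35.96 UMIs where the highest columnar cell had 35, so that list could not score division against immune cells. Mki67, the proliferation antigen, stood at 129 CPM over all 366 cells.

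Endocrine cells were counted singly. Over the endocrine list 9 of 345 cells (2.61%, 1.20 to 4.89) passed, and 85.7% of the list's UMIs lay in 4 cells. In 1 cell of 13514 UMIs, somatostatin (Sst) took 2365 UMIs, or 17.5%, and the same cell held 1903 UMIs of peptide YY (Pyy), 247 of pancreatic polypeptide (Ppy) and 113 of amylin (Iapp). In a different cell of 14869 UMIs, gastrin (Gast) took 1082 UMIs, or 7.28%, beside 581 of Pyy. In another of 17710 UMIs, ghrelin (Ghrl) took 2606 UMIs, or 14.7%. These 3 cells held 95.8% of the Sst, 97.5% of the Gast and 85.8% of the Ghrl of the whole group. The gastrin and ghrelin cells also held 28 and 32 UMIs of Isl1, a transcription factor of endocrine cells. The levels of these hormones in the group therefore rest mostly on 1 cell each. In the other groups the highest cell held 854 UMIs of Gast at E15 but 4 in pups, and 8914 UMIs of Ghrl in GE-SCJ at E19.

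Antral identity was looked for with Pdx1 and Nkx6-3, transcription factors of the distal stomach. Nkx6-3 was at 30.9 CPM (27.5 to 34.6) and had a UMI in 11.6% of cells against 0.40% of immune cells, and Pdx1 was at 11.5 CPM and had one in 4.64% against 0%. Over the antrum list 14 of 345 cells (4.06%, 2.24 to 6.71) passed, with 9 of them 1 UMI over the cut. Nkx6-3 in particular differed between cells low and high in Cym. Cym itself split the cells, with a median of 345 UMIs per 10000 but only 16.7 at the 10th percentile, close to the immune median of 12.8.

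With a threshold of 50 Cym UMIs per 10000, set after seeing the values, 64 of the 366 cells (17.5%, 13.7 to 21.8) were low, and 37 cells lay between 25 and 100. Nkx6-3 was at 101 CPM in these 64 cells and 16.7 CPM in the other 302, and at 5000 UMIs it had a UMI in 39.7% (27.6 to 52.8) against 5.32% (3.01 to 8.62). Without thinning the shares were 84.4% and 14.9%, at median depths of 21307.5 and 24762.5 UMIs. Pdx1 was at 32.5 against 7.3 CPM, but its shares at 5000 UMIs, 9.52% (3.58 to 19.6) and 3.55% (1.71 to 6.42), had overlapping intervals. Onecut2, a further endodermal transcription factor, was at 104 against 9.9 CPM. Sex-linked genes moved with the same split, with Xist at 1112 against 594 CPM and the Y-linked Ddx3y at 8.12 against 32.3 CPM, and the part of the mouse of origin was not tested. The Cym-low cells also held the single cells highest in Sst, Gast and Ghrl, with 98.8%, 99.4% and 96.7% of the Cym-low UMIs of these hormones.

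Pit genes differed in how they followed Cym. Gkn1 was at 2716 against 286 CPM, Gkn2 at 2670 against 268 CPM, Krt20 at 164 against 7.1 CPM and Fcgbp at 434 against 11.1 CPM in the Cym-low cells and the rest. Tff1 was at 19167 against 4342 CPM, but the rest still held 34506 of its UMIs against 30694 in the Cym-low cells. Muc5ac went the other way (16.2 against 29.3 CPM), as did Muc5b (112 against 221 CPM, log2 ratio -0.98, -1.21 to -0.76). Of the cells over the pit cut, 49 were Cym-low and 72 were not. Some transcription factors and a claudin, chosen after the values were seen, had log2 ratios between -0.43 and 0.59. Gata6 was at 180 against 173 CPM, with an interval of the log2 ratio that held 0 (-0.12 to 0.25). The log2 ratio was 0.28 (0.21 to 0.35) for the gastric claudin Cldn18, -0.43 (-0.73 to -0.13) for Gata4, 0.59 (0.09 to 1.07) for Gata5 and 0.34 (0.05 to 0.63) for Sox2. Lower in the Cym-low cells were Lypd2 (1.25 against 62.2 CPM), H19 (210 against 1644 CPM) and Igf2, a fetal growth factor (53.7 against 288 CPM). In GE-SCJ at E19 only 8 of 274 columnar cells (2.92%, 1.27 to 5.67) were Cym-low. In pups 73 of 351 (20.8%) were, of which 43 belonged to cluster 12, and at E15, where the Cym median was 13.5 per 10000, 107 of 140 (76.4%) were.

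**Figure D2:**
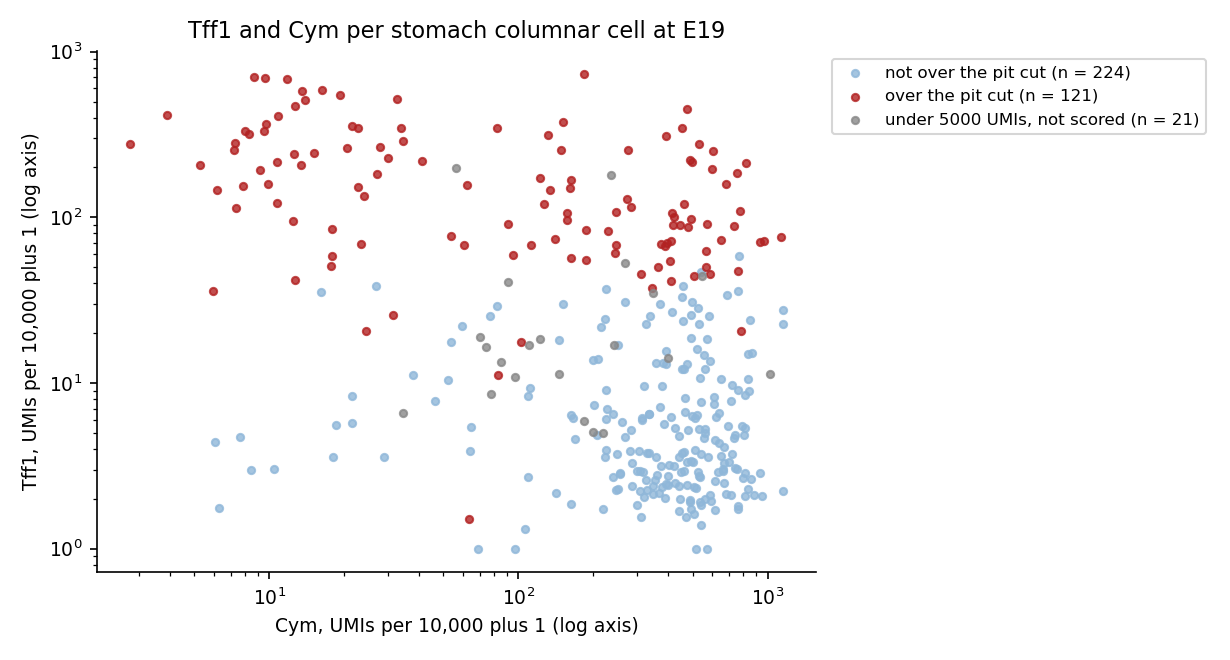
Tff1 against Cym in each of the 366 stomach columnar cells at E19, both as UMIs per 10000 plus 1 on log axes, with the 121 cells over the pit cut in red, the 224 others in blue and the 21 cells under 5000 UMIs in grey. Most cells sit at high Cym and low Tff1, and the red cells form an upper band that reaches from low to high Cym.

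Genes of the embryonic programme were still present in some cells. On the list of precursor genes that the study itself drew from these samples, 36 of 345 cells (10.4%, 7.42 to 14.1) passed, with 79.1% of the UMIs from H19. This list is no independent evidence of its direction. Of the 36 cells, 3 were over the pit cut. Cells over the precursor cut had 627 CPM of the imprinted cell cycle inhibitor Cdkn1c against 202 CPM, 1665 CPM of cyclin D2 (Ccnd2) against 595 CPM and 91.0 CPM of the growth factor midkine (Mdk) against 34.7 CPM, and less Tff1 (1087 against 7376 CPM).

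Many cells scored on several lists at once. Of the 345 cells, 68 (19.7%) were over none of the 6 gland lists (pit, neck, parietal, chief, endocrine and tuft), 98 (28.4%) over 1 and 179 (51.9%) over 2 or more. The base list was not part of this count. Of the cells over the pit cut, 87.6% were over the parietal cut, on a list that is mainly Car2 and Ckmt1, against 62.3% of all cells. For the chief list it was 41.3% against 35.7%, near the share of all cells.

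**Figure D3:**
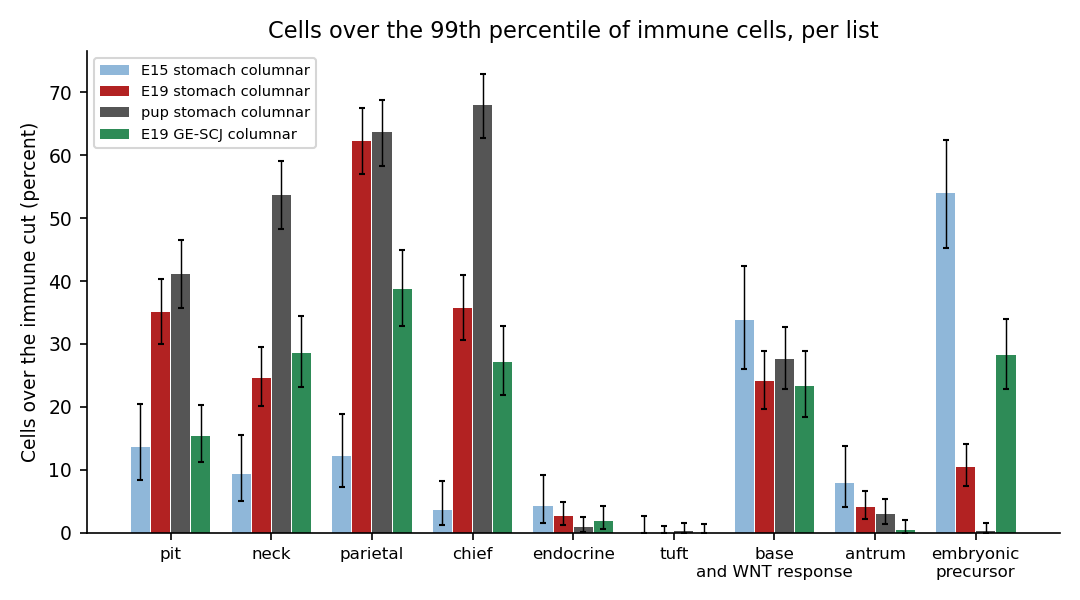
Percent of cells over the 99th percentile of immune cells for 9 marker lists, at 5000 UMIs per cell, in columnar cells of E15, E19 and pup stomach and of GE-SCJ at E19. Bars start at 0 and carry exact 95% binomial intervals. The E19 stomach bar for pit (35.1%) lies between E15 (13.7%) and pup (41.1%) and above GE-SCJ (15.4%), and the precursor bar (10.4%) is below E15 (54.0%).

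Transcription factors of gastric endoderm were mostly seen in a larger share of these cells than of immune cells. For 17 of the 20 on the list, the share of cells with a UMI was above that of immune cells, with intervals that did not overlap. Of all 16829 genes with a UMI in these cells, 11.7% were above immune cells by the same measure. The most widespread were Klf5 (88.7% of cells against 12.7%), Foxq1 (83.8% against 15.02%), Foxa1 (56.5% against 5.93%) and Gata6 (54.8% against 3.16%). Sox2, a factor of foregut progenitors, was present in 23.5% of cells at 63.1 CPM (58.1 to 68.3). The other 3, Xbp1, Esrrb and Nr5a2, were not above immune cells. Of 20 secreted signals, 10 were above by this measure, with the largest shares for the hedgehog ligands Ihh (40.6% against 3.95%) and Shh (16.2% against 0.40%) and the growth factor Pdgfa (34.5% against 5.93%). Of 9 intestinal genes, Cdx2 and Isx had 0 UMIs, which allows up to 0.314 CPM. Of the others, Vil1, an actin bundler of microvilli, was at 35.1 against 3.72 CPM in immune cells and was the 1 gene whose share of cells with a UMI was above theirs (15.07% against 1.19%). Fabp2 was at 7.65 CPM and Apoa4 at 4.08 CPM, and the remaining 4 had 1 to 10 UMIs. Among liver and pancreas genes Ttr, the thyroid hormone carrier transthyretin, had a UMI in 65.5% of cells against 4.74%, while Cpa1 and Ptf1a had 0 UMIs.

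To find the genes that varied most among the cells, the variance of each gene's Pearson residuals was ranked. A residual is the count less the count its mean level predicts for a cell of that depth, scaled so that a gene with no variation between cells beyond counting comes to about 1. Of 12539 genes ranked, the median was 1.19 and 1347 (10.7%) exceeded 2. The 30 largest ran from 78.8 for Tff1 to 21.1 for the glutathione transferase Mgst3, and the next gene, Fos, had 20.6. The choice and the values come from the same cells, so no test applies.

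**Figure D4:**
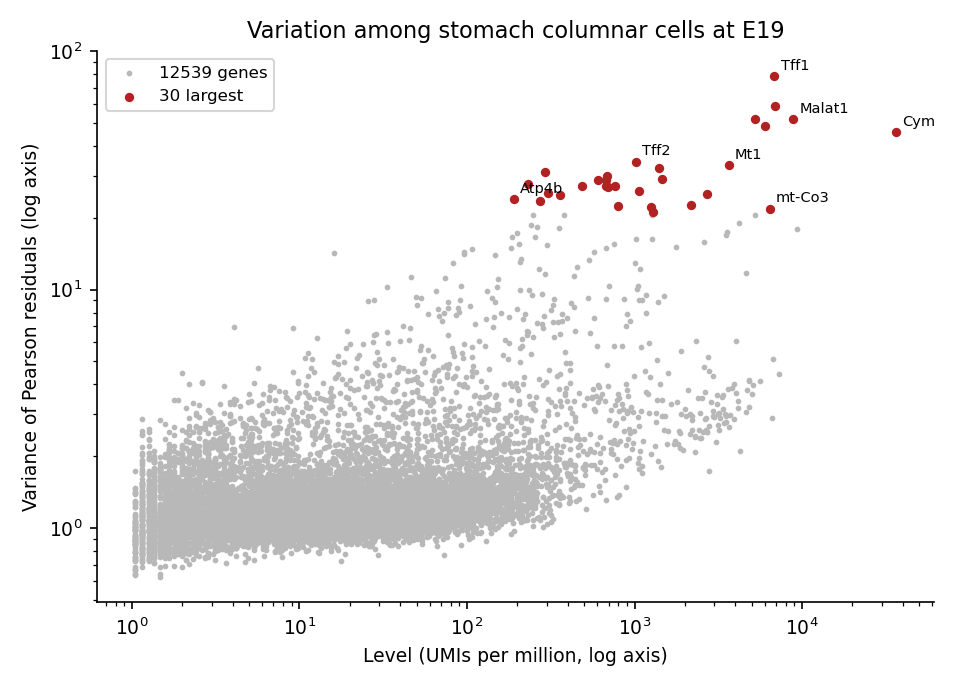
Variance of Pearson residuals (log axis, vertical) against level in CPM (log axis, horizontal) for 12539 genes over the 366 stomach columnar cells at E19, with the 30 largest in red. Tff1 is highest at 78.8, Cym is the most abundant at 45.9, and the median gene lies at 1.19.

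The 30 genes fell into a few kinds. Pit genes were Tff1, Gkn1 and Gkn2, and with them went Mucl3, a mucin-like gene (r = 0.80 with Tff1), Lypd8, a secreted protein that coats bacteria (r = 0.78), the glutathione transferase Gsta1 (r = 0.76) and 2210407C18Rik (r = 0.75). Digestive genes were Cym, Pga5, Pgc and Clps, the cofactor of pancreatic lipase. Cym and Tff1 ran opposite (r = -0.47), while Cym and H19 ran together (r = 0.59). The neck gene Tff2 had rank 7. Spp1 was narrower, with 92.1% of its UMIs in the 37 highest cells and r = 0.55 with Pgc.

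The proton pump genes Atp4a and Atp4b ran together (r = 0.81), and Atp4a ran with Gm26917 (r = 0.83) and Tnni3 (r = 0.80). The noncoding RNA Malat1 had rank 3 (52.0) and Gm42418 rank 5 (48.6), both abundant in immune cells too, at 9534 and 8455 CPM. Hmgb2 and the histone gene Hist1h2ap were also among the 30, and Hmgb2 had r = 0.81 with Mki67. None of the 30 was on the fixed cell cycle list. Both genes left the 30 when cells were thinned to 5000 UMIs or genes were ranked by variance over the mean. S100a6 (r = 0.63) and Mgst3 (r = 0.69) also varied with Tff1, as Gkn1 (0.64) and Gkn2 (0.57) did. The other members were the metallothioneins Mt1 and Mt2, Bpifb1, the fatty acid-binding protein Fabp5, the small proline-rich gene Sprr2a3, H19 and the mitochondrial gene mt-Co3. Xist, the RNA of the inactive X chromosome, had rank 11, and 121 cells had Xist UMIs and no Y-linked UMI while 116 had the reverse, 103 had both and 26 had neither. Of the 30, 23 were at least 2-fold above their immune level, beside 15.3% of all 9690 genes with enough counts. Many of the 30 ranked high in the other groups too, as 13 were among the 30 most variable at E15, 16 in pups and 20 in GE-SCJ at E19. Cym and Tff1 had ranks 1 and 2 at E15. Among the exceptions, 2210407C18Rik had rank 4600 at E15, and Atp4a had rank 919 at E15 and rank 2 in pups.

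The levels of the cells were then set beside the other columnar samples. A gene was counted as higher or lower where the level differed at least 2-fold and both groups together held at least 100 UMIs. All 3 comparisons use the same 366 cells, and each sets 1 pooled sample against another. Against E15 stomach, 3.20% of 9207 genes were higher and 2.60% lower at E19. With a minimum of 30 UMIs the balance against E15 turned, with more genes lower than higher, as the closing section gives. Against pups, 9.84% of 9958 genes were higher and 5.48% lower, and against GE-SCJ at E19, 1.09% of 9591 genes were higher and 0.5% lower. The median log2 ratio of all genes was -0.16 against E15, 0.25 against pups and -0.01 against GE-SCJ, and ratios should be read relative to it.

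**Figure D5:**
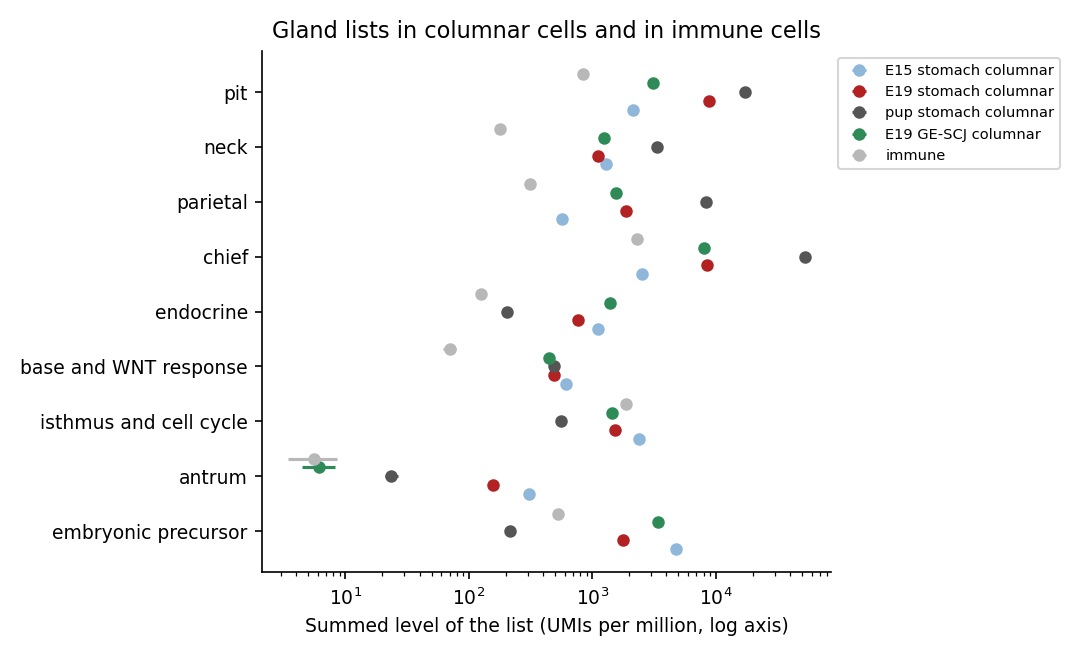
Summed level of 9 marker lists in CPM (log axis) in columnar cells of E15, E19 and pup stomach and of GE-SCJ at E19, and in immune cells, with exact 95% Poisson intervals that are mostly smaller than the points. The E19 stomach point is above E15 and below pup for pit, parietal and chief lists, and the reverse for the embryonic precursor list.

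Against E15, 4 of the 6 pit genes with enough UMIs were higher at E19 and none was lower. The median log2 ratio of these 6 was 2.07. Gkn1 stood at 98.9 CPM at E15, 693 at E19 and 2601 in pups, and Psca at 93.8, 379 and 2318 CPM. Of the other 2, Muc5ac had a log2 ratio of 0.57 (0.18 to 0.97) over E15 and Gkn3 one of -0.42 (-0.53 to -0.30). For parietal genes 6 of 9 were higher and 1 lower (median log2 ratio 1.498), and for chief genes 3 of 4 were higher (1.91). Pga5 showed the largest step of the pepsinogens, from 787 CPM at E15 to 6939 CPM (log2 ratio 3.14, 3.09 to 3.19), while Pgc did not step up (1718 and 1453 CPM). All 6 precursor genes were lower (median log2 ratio -2.19), while none of 12 cell cycle genes (-0.53) and none of 6 base genes (-0.37) passed 2-fold. Endocrine genes, which rest on single cells, were higher for 1 and lower for 3 of 5. The erythroid list was higher for 4 of 4 genes, which lie mostly in 4 cells as given above.

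Among the genes chosen by size, those higher at E19 than at E15 included 2210407C18Rik (291 against 16.8 CPM), Duoxa2 (22.7 against 1.6 CPM), Fam3b, a secreted cytokine-like protein (27.2 against 1.3 CPM), Nqo1, a quinone reductase (169 against 15.8 CPM) and Il18, an epithelial cytokine (112 against 10.6 CPM). Sst, Ppy and Iapp were also among them, through the 1 cell described. Of those lower at E19, some came from 1 cell of E15 stomach. A single E15 cell held 1466 of the 1469 UMIs of the chymotrypsinogen gene Ctrb1, and the highest E15 cell held 279 of 281 UMIs of Pnliprp1, a pancreatic lipase-related gene, and all 157 UMIs of the carboxypeptidase gene Cpa1. On the list of pancreas and liver genes 1 of 4 was lower and none higher (median log2 ratio -0.34). Nepn had 0 UMIs at E19 against 287 at E15, of which the highest cell held 77. Mdk was at 39.3 against 608 CPM (log2 ratio -3.95, -4.11 to -3.79) and the fetal claudin Cldn6 at 14.04 against 136 CPM.

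Against pups, the mature gland genes were lower at E19. This held for 4 of 7 pit genes, 3 of 3 neck genes, 6 of 9 parietal genes and 4 of 5 chief genes, with none higher on these lists. The median log2 ratios were -1.91, -1.81, -1.64 and -2.18. Pgc was at 1453 against 33193 CPM (log2 ratio -4.51, -4.54 to -4.49), Atp4a at 232 against 3340 CPM and Muc6 at 91.1 against 841 CPM, but Tff1 was near its pup level (6829 against 8826 CPM). Higher at E19 were 12 of 12 cell cycle genes (median log2 ratio 1.56) and 6 of 6 precursor genes (2.96). Mki67 was at 129 against 52.6 CPM and Top2a, a topoisomerase of dividing cells, at 210 against 65.4 CPM. On the lists of erythroid genes 4 of 4 (median log2 ratio 2.98), of smooth muscle 5 of 6 and of stroma 3 of 5 were also higher. Cells with foreign RNA are given above, and their part was not tested. Of 5 endocrine genes 3 were higher and 1 lower, which rests on single cells. Without the highest cell of each group, Sst was at 10.9 against 7.83 CPM, Gast at 2.94 against 1.93 CPM and Ghrl at 45.4 against 44.8 CPM.

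Of 15 secreted signals 6 were at least 2-fold higher than in pups, beside 9.84% of all genes, among them Shh (36.9 against 10.9 CPM) and Ihh (110 against 35.4 CPM). Of 18 transcription factors 3 were higher and none lower, too few to be read apart from that share. Sox2 was 1 of the 3 (63.1 against 11.7 CPM). Genes chosen by size that were higher than in pups were Fcgbp (82.0 against 2.2 CPM), Lypd2 (52.0 against 1.8 CPM) and the gasdermin genes Gsdmc2 (119 against 7.0 CPM) and Gsdmc3 (26.5 against 1.1 CPM). Those lower were Hamp2, a hepcidin gene (0.2 against 25.7 CPM), Cyp2c29, a cytochrome P450 (0.4 against 33.8 CPM), and Sycn, a zymogen granule protein (7.5 against 205 CPM). Alb, the albumin gene, was also lower, but 1 pup cell held 1322 of the 1338 UMIs.

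Some genes had their highest level of the 3 stomach stages at E19, and the 10 highest over both other stages were looked at. Of these, Sprr2a3, Myl7, Gsdmc2 and Gsdmc4 were also above their E15 and pup stomach levels in GE-SCJ at E19. Sprr2a3 was at 609 CPM against 73.0 at E15 and 73.9 in pups, with log2 ratios of 3.05 (2.88 to 3.23) and 3.04 (2.94 to 3.15). Myl7, a myosin light chain best known from the atrium, was at 72.6 CPM against 9.6 and 9.3. Gsdmc2 was at 119 CPM against 17.4 and 7.0, and Gsdmc4 at 18.5 CPM against 3.1 and 1.2. In GE-SCJ at E19 Sprr2a3 was at 417 CPM, Myl7 at 41.04, Gsdmc2 at 194 and Gsdmc4 at 21.5. Gm26917 also had its highest level at E19 (764 against 123 and 78.0 CPM), through the shallow cells of cluster 12. Hormone genes Ppy, Iapp and Sst ranked here through 1 cell, and Pyy mostly through 2 cells, which held 1903 and 581 of its 2559 UMIs. Ppy, Iapp, Sst and Pyy had 0, 2, 69 and 27 UMIs in GE-SCJ at E19.

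Against GE-SCJ of the same day, pit and antral genes were among those that differed. Of 7 pit genes 4 were higher and 1 lower, with a median log2 ratio of 1.45. Gkn1 was at 693 against 92.7 CPM, Gkn2 at 671 against 110 CPM, Tff1 at 6829 against 2506 CPM and Gkn3 at 183 against 60.02 CPM, while Muc5ac was lower in the stomach (27.1 against 67.3 CPM, log2 ratio -1.31, -1.53 to -1.09). All 3 antrum genes were higher. Nkx6-3 was at 30.9 against 2.1 CPM (log2 ratio 3.80, 3.07 to 4.62), and Pdx1 at 11.5 against 2.2 CPM, while Gast rests on 1 cell. The erythroid list was higher for 4 of 4 genes, again mostly through 4 cells, and the endocrine list was higher for 2 and lower for 2 of 6 genes.

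Of the 3 neck, 9 parietal and 4 chief genes with enough UMIs, none passed 2-fold either way against GE-SCJ (median log2 ratios 0.60, -0.48 and -0.29). Onecut2 was the 1 transcription factor of 18 that did (25.7 against 3.9 CPM), and Areg, the growth factor amphiregulin, the 1 signal of 15 (16.0 against 60.3 CPM). Further genes chosen by size were Krt20 (33.3 against 2.9 CPM), S100g (95.6 against 11.6 CPM) and Prap1, a secreted protein of the gut lining (45.5 against 4.6 CPM) on the stomach side. On the junction side were Irx5, a homeobox factor (2.2 against 20.7 CPM), Igfbp2, a growth factor-binding protein (39.9 against 192 CPM), and 2 hormones that rest on single cells. Ghrl was at 318 against 1285 CPM, but at 45.4 against 41.2 CPM without the highest cell of each group, a setting added after seeing the data. Proglucagon, Gcg, was at 2.1 against 128 CPM, with 915 of the 920 junction UMIs in 1 cell.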

How the data were processed

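One single-cell 3′ gene expression library and its library of cell tags were made from pooled wild-type C57BL/6 tissue. The authors aligned and demultiplexed reads with Cell Ranger 6.1.1 against mm10, removed cells with extreme gene, UMI or mitochondrial values, and deposited raw UMI counts with cell labels, clusters and sample tags. The deposited metadata also give a mitochondrial percent per cell, used as a description. No doublet caller was run here. No per-sample value column was left unused (0).

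Members, gene lists and groups were chosen with earlier results of these data known. Counts were summed per group and scaled to a total of 1000000 (CPM). Log2 ratios add 1 UMI to each sum, with an exact conditional 95% interval. Cells were thinned to 5000 UMIs with a fixed seed (1). Pearson residuals used a dispersion theta of 100 over genes seen in at least 10 cells. Correlations used log values per cell over all 366 cells. The median depth of columnar cells was 24241 UMIs in E19 stomach, 24673 in E15 stomach, 29810 in pup stomach and 24442.5 in GE-SCJ at E19. As each sample is 1 pool, no test was made.

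Genes named are members of the fixed lists, the 30 most variable, the 10 in each direction per comparison with the largest ratio (at least 100 UMIs over both groups and 2 times the immune level), and the 10 highest over both E15 and pup. The splits by Cym, by cluster and by the pump pair, with the genes outside the lists named in classes of cells, were chosen after seeing the values.

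The calculations were tested on simulated data. Promoters came from RefSeq on GRCm38.p6, which is the mm10 build. Of 7 genes looked up, 5 were matched. Work was done in Python 3.11.15 (pandas 2.3.3, scipy 1.17.1, matplotlib 3.10.9, numpy 2.4.6). Alternatives to the thinning depth, the immune cut, the background cells, the ranking and the UMI minimum are given in the closing section.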

Additional observations from a re-analysis of the deposited data

How the results depend on the processing

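No paired analysis was possible because each region and stage is 1 pooled sample. The share of cells over a cut depended on where the cut was set, and the cause was not tested. Against E19 immune cells alone it was 42.0% for pit, 30.7% for neck, 70.1% for parietal, 44.6% for chief and 34.5% for base genes. Against E19 stomach stromal cells it was 40.6% for pit, 54.2% for parietal, 58.3% for chief, 1.16% for endocrine and 16.2% for base genes. Against endothelial cells it was 30.7% for neck, 70.1% for parietal, 58.3% for chief, 4.35% for tuft and 57.1% for base genes. With the 95th percentile of immune cells it was 46.7% for pit, 30.7% for neck, 70.1% for parietal, 58.8% for chief, 5.51% for endocrine, 4.35% for tuft, 3.77% for cell cycle and 34.5% for base genes. With the highest immune cell it was 39.1% for parietal, 0% for chief, 1.16% for endocrine and 6.38% for base genes. At 10000 UMIs it was 44.0% for pit, 69.1% for parietal, 2.45% for chief and 30.6% for base genes. As an unthinned share of UMIs it was 22.4% for pit, 12.02% for neck, 12.3% for parietal, 15.6% for chief, 1.09% for endocrine, 1.64% for tuft and 7.10% for base genes. For the pump genes alone, a choice added after seeing the data, it was 4.64% at 5000 UMIs and 6.94% at 2000. The other 34 of 74 such values stayed within the interval of the reported share. Of the 30 most variable genes, 19 were shared with theta 10, which left out Pga5, S100a6, Cym and Mt1 among others, and 15 with the variance over the mean. With at least 30 UMIs, which admits more genes, 461 genes were higher and 569 lower against E15, and 219 higher and 155 lower against GE-SCJ. The other comparison counts stayed within 1.5 times the reported ones. Of the values for single genes and lists, 25 gene levels moved outside their counting interval and 3 did not, as did 26 shares of cells with a UMI against 2 and 18 summed list levels against 14. The mean over single cells was 696 CPM for Atp4a, and after the top 1% of cells for each hormone was left out, Ghrl was at 42.5 CPM, Sst at 8.77 CPM and Gast at 2.43 CPM. Without the highest cell of each group, a setting added after seeing the data, the log2 ratio became 0.26 for Alb against pups, and 0.14 for Ghrl and 0.84 for Gcg against GE-SCJ, so all 3 changed direction, while it became -0.90 for Ctrb1 and -1.31 for Pnliprp1 against E15. Scores at few UMIs are coarse, as the cuts for neck, parietal and base genes lie at 3 to 5.48 UMIs.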
